A study of Mus musculus with 4 samples.

Results

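The genes described here encode the subunits and activators of the proteasome, including the immunoproteasome. They were taken by symbol from the table of gene expression: a row was a member where its symbol began with Psma, Psmb, Psmc, Psmd or Psme followed by a digit, unless it carried -ps or ended in ip. This gave 45 of 16142 genes. By role, they were 8 genes of the 20S α rings, 8 constitutive or tissue-restricted genes of the 20S β rings, 6 ATPases and 11 other subunits of the 19S regulatory particle, 3 chaperones of 19S assembly, the 5 immunoproteasome genes Psmb8, Psmb9, Psmb10, Psme1 and Psme2, and 3 further activator genes. The remaining row, Psme3ip1, met the letters of the rule but encodes a protein that binds PSME3, not a subunit.

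RNA-seq of mouse CD4+ T cells was analysed in 2 WT libraries and 2 R111A libraries. WT cells came from the spleen of WT B6 mice, and R111A cells from the spleen of Cd4CreERT2 LSL-R111A fl/fl mice, which carry a transgene for the mRNA-degrading endonuclease Regnase-1 (gene Zc3h12a) with alanine in place of the arginine at which the MALT1 protease cuts it. The labels name tamoxifen at 75 mg/kg for 5 days in a sentence that covers WT and mutant mice, and all cells were FACS sorted and stimulated with 5 µg/mL anti-CD3 plus 1 µg/mL anti-CD28 for 12 h. The transgene sits behind a loxP-flanked stop, adds to the endogenous alleles and is linked to EGFP, so effects of the mutant, of Cre and of EGFP cannot be told apart, since WT cells carry none of them. The study used mice of both sexes and a range of ages, but the labels do not say which gave each library, or whether replicates came from separate mice, so p-values measure only the spread between these samples, which may be technical.

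The proteasome degrades proteins tagged with ubiquitin. Its 20S core is a barrel of stacked rings in which α subunits form the gate and β subunits hold the proteolytic sites, and the 19S particle binds ubiquitin chains, removes them and unfolds the substrate with a ring of ATPases. In lymphocytes and in cells exposed to interferon, the catalytic β subunits are replaced by inducible ones to give the immunoproteasome, which cuts many peptides for presentation on MHC class I, and the Psme1 and Psme2 products form a cap that opens the core without ATP.

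Values were FPKM, reads scaled by transcript length and sequencing depth, so levels can be set side by side between genes of 1 library. How many reads a value rests on is unknown. Differences are R111A minus WT on the scale of log2(FPKM + 1), which understates the change of genes with low values. They were tested with limma over the 9831 genes that averaged 1 FPKM or more, and a gene was called at an adjusted p under 0.05. The label check came first. Zc3h12a stood at 17.0 and 15.7 FPKM in the WT libraries and at 196 and 131 FPKM in the R111A libraries, a difference of 3.22 (SE 0.19, limma adjusted p = 9.19e-06). Both R111A libraries were far above both WT libraries, as their labels state.

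Of the 45 genes, 43 passed the expression filter. Psma8, a testis variant of an α subunit, was at 0.04 and 0 FPKM (WT) and 0 and 0.05 FPKM (R111A). Psmb11, the catalytic subunit of the thymic epithelium, was at 0 and 0.03 FPKM (WT) and 0 in both R111A libraries. These 2 tissue-restricted genes were therefore at or near 0 in every library and were not tested.

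In the limma fit 18 of the 43 were lower (41.9%, against 32.1% of all genes tested) and 2 were higher (4.65%, against 21.2%), while 23 were not called. With a 2-fold change required as well, 3 were lower, Psmd2, Psmc1 and Psme3 (6.98%, against 8.34%), and 1 was higher, Psme2b (2.33%, against 8.52%). The share of large decreases was thus close to that of all genes. Both R111A libraries lay below both WT libraries for 36 members (83.7%, against 46.3%) and above them for 2 (4.65%, against 32%), with 5 overlapping. The median difference was -0.31 for the members and -0.12 for all genes tested.

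**Figure D1:**
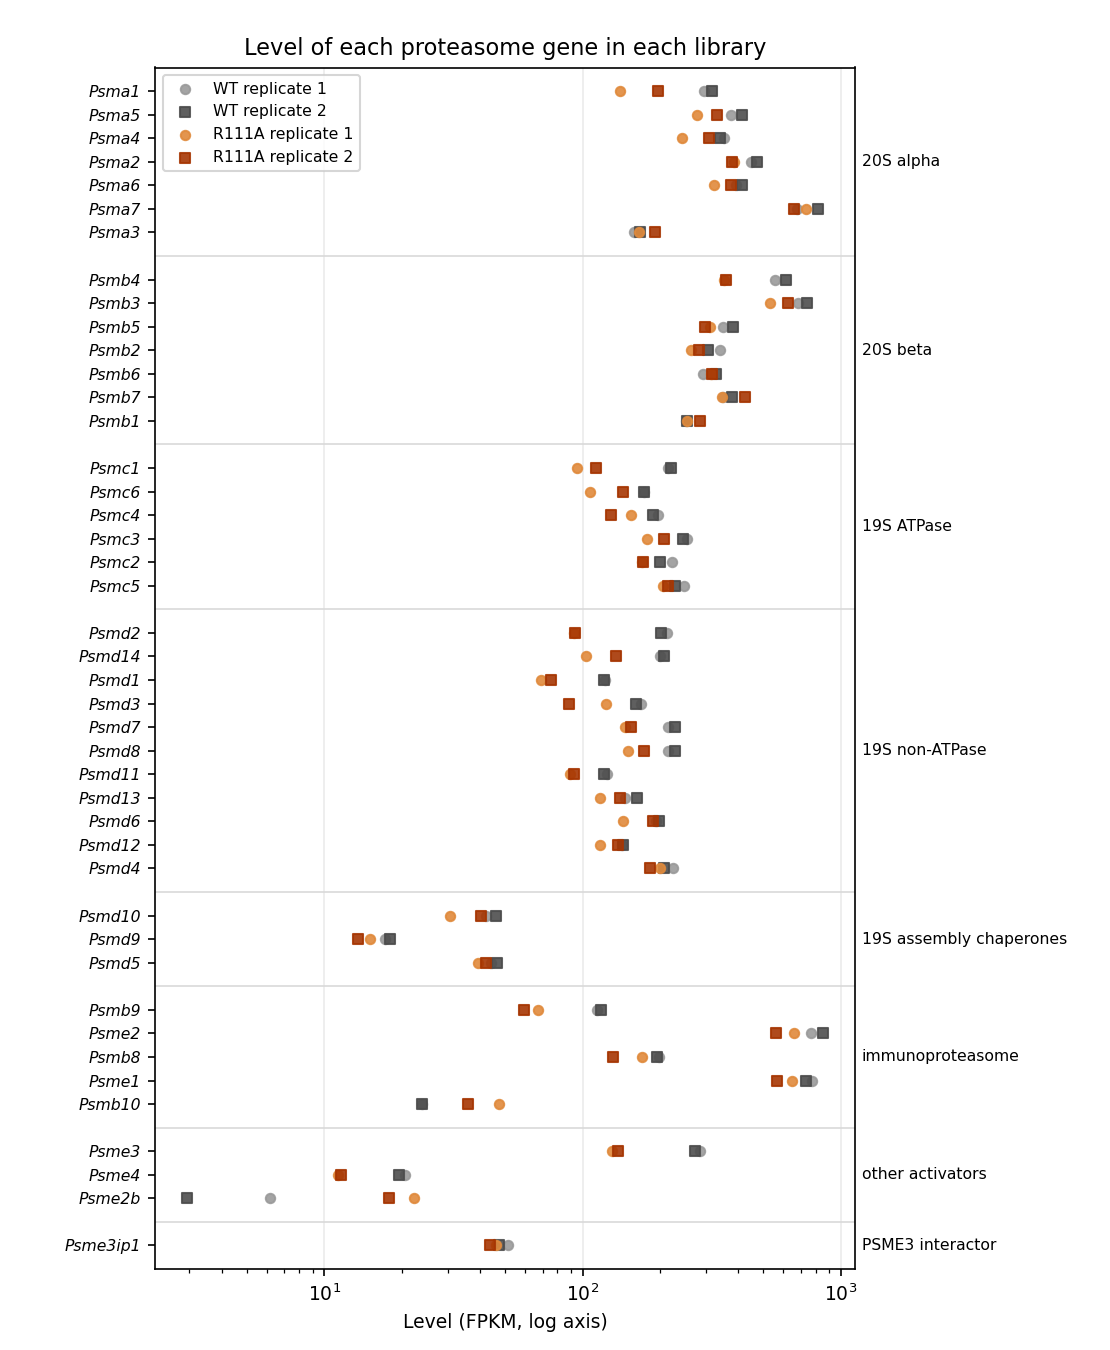
Level in FPKM (log axis) of the 43 proteasome genes tested, by role, in each of the 4 libraries (grey, WT; orange and brown, R111A; circles, replicate 1; squares, replicate 2). The 14 core subunits lie between 139 and 815 FPKM, and the R111A points are left of the WT points for 36 genes and right of them for 2, Psmb10 and Psme2b.

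The size of these differences depended on how the libraries were put on a common scale. The FPKM values summed to 801475 and 836143 in the WT libraries and to 1053551 and 1012215 in the R111A libraries, and the 100 most abundant genes of each library held 47.6% and 48.7% of the sum in WT but 63.9% and 63.0% in R111A. The 45 proteasome genes together made up 1.39% and 1.38% of the sum in WT and 0.835% and 0.903% in R111A. Rescaling each library to TPM moved the median of all genes from -0.12 to -0.42, and the number of lower members was 37 in place of 18 (86.0%, against 51.8% of all genes). Median-of-ratios factors, under which the median of all genes was 0.01, gave 11 (25.6%, against 25.1%), and quantile normalization gave 10 (23.3%, against 26.8%). Under these 2 scalings the share of lower members was thus close to or below that of all genes. The share of higher genes among all called genes moved with the scaling, from 39.8% as deposited to 20.8% in TPM, 51.0% with median-of-ratios factors and 46.9% under quantile normalization. Relative to the median of all genes, the members' median was -0.20 as deposited, -0.23 in TPM, -0.18 with median-of-ratios factors and -0.12 under quantile normalization. Under all 4 scalings 10 members were lower, Psma1, Psmb4, Psmb9, Psmc1, Psmd1, Psmd2, Psmd7, Psmd14, Psme3 and Psme4, which is 23.3% of the members against 24% of all genes tested. The same held in the higher direction for Psmb10 and Psme2b (4.65%, against 13.2%). As deposited, the members' median relative to that of all genes was -0.22 without WT replicate 1 and -0.21 without WT replicate 2. It was -0.17 without R111A replicate 1 and -0.18 without R111A replicate 2. The number of lower members also changed with the library left out. In bulk RNA, fewer cells that use a gene and less of its RNA per cell cannot be told apart.

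**Figure D2:**
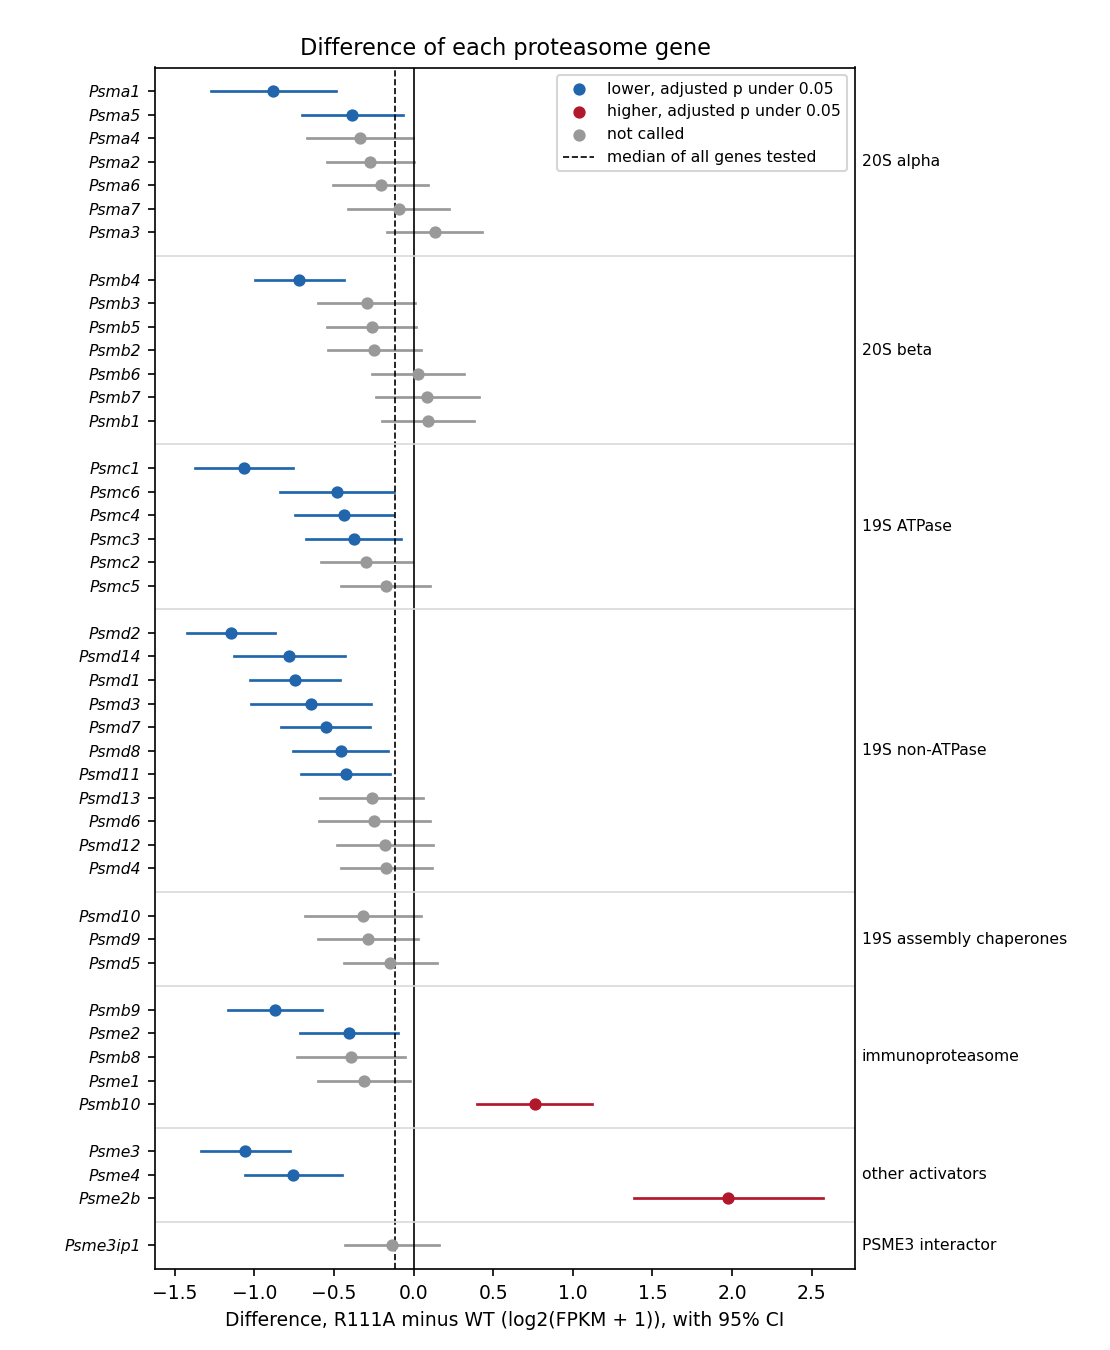
Difference between R111A and WT (log2(FPKM + 1), with 95% confidence interval from limma, 2 libraries per group) of the 43 proteasome genes tested, by role, with lower genes in blue (18) and higher genes in red (2) at an adjusted p under 0.05, and the dashed line marks the median of all 9831 genes tested, -0.12. The points of Psma3, Psmb1, Psmb6 and Psmb7 lie above 0 as deposited and below 0 in TPM, and those of Psma7, Psmc5, Psmd4, Psmd5, Psmd12 and Psme3ip1 lie below 0 as deposited and above 0 under quantile normalization.

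Among core, ATPase, other 19S and immunoproteasome genes, the constitutive 20S core had the median nearest to WT, except without R111A replicate 2, where it was -0.28 against -0.22 for the immunoproteasome genes. Of its 14 subunits, 3 were lower in R111A (21.4%, against 32.1% of all genes) and 0 were higher (against 21.2%) by limma's adjusted p. Both R111A libraries were below both WT libraries for 9 (64.3%, against 46.3%). The number of lower core subunits was 10 in TPM (71.4%, against 51.8%), 2 with median-of-ratios factors (14.3%, against 25.1%), 2 under quantile normalization (14.3%, against 26.8%) and 6 without R111A replicate 2 (42.9%, against 38.6%). Its median difference was -0.25, which is -0.14 relative to the median of all genes as deposited, -0.17 in TPM and -0.12 with median-of-ratios factors, and turned to 0.01 under quantile normalization. Within a library, the highest core subunit was 4.34 and 4.89 times the lowest in WT and 5.27 and 3.46 times in R111A. An assembled barrel without inducible subunits, by contrast, holds each of them in equal number.

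In the α rings, Psma1 encodes the subunit at position 6 of the ring. It was at 295 and 318 FPKM (WT) and 139 and 197 FPKM (R111A), a difference of -0.88 (SE 0.17, limma adjusted p = 0.00283). Psma5, at position 5, was at 376 and 417 FPKM (WT) and 278 and 331 FPKM (R111A) (difference -0.38, SE 0.14, limma adjusted p = 0.0435). For both genes the R111A libraries lay below the WT libraries, but the call for Psma5 was lost with median-of-ratios factors (limma adjusted p = 0.156), quantile normalization (0.301), no filter (0.0824) and eBayes without trend (0.0562), and without WT replicate 1, WT replicate 2 or R111A replicate 1, with a range from 0.000681 to 0.332 over all alternatives. The other end of the α group was Psma3, at 158 and 166 FPKM (WT) and 166 and 191 FPKM (R111A), with a difference of 0.13, and Psma7, at 677 and 815 FPKM (WT) and 734 and 659 FPKM (R111A), with a difference of -0.09. In both the groups overlapped and neither was called, and their sign turned with the scaling. Psma3 was at -0.20 in TPM, and Psma7 was at 0.04 with median-of-ratios factors but at -0.43 in TPM, where it was lower (limma adjusted p = 0.011).

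In the β rings the single lower gene was Psmb4, whose product is not catalytic and is the last β subunit to join during assembly. Its level was 559 and 616 FPKM in WT and 353 and 359 FPKM in R111A, a difference of -0.72 (SE 0.12, limma adjusted p = 0.00149), with both R111A libraries well below WT. Psmb3, a non-catalytic subunit at position 3, was at 685 and 738 FPKM (WT) and 535 and 628 FPKM (R111A), lower in both R111A libraries but not called (difference -0.30, limma adjusted p = 0.092, but 0.00131 in TPM). Psmb1, at position 6, was at 251 and 255 FPKM (WT) and 254 and 286 FPKM (R111A), with overlapping groups (difference 0.09 as deposited, -0.24 in TPM).

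The 3 constitutive catalytic subunits were not called. Psmb5, the chymotrypsin-like subunit at position 5, was at 351 and 382 FPKM (WT) and 312 and 297 FPKM (R111A) (difference -0.26, SE 0.12, limma adjusted p = 0.102, but 0.00116 in TPM). Psmb6, the caspase-like subunit at position 1, was at 292 and 330 FPKM (WT) and 316 and 317 FPKM (R111A) (difference 0.03, SE 0.13). Psmb7, the trypsin-like subunit at position 2, was at 349 and 378 FPKM (WT) and 348 and 427 FPKM (R111A) (difference 0.09, SE 0.14). Both R111A libraries were below WT for Psmb5, while the groups overlapped for Psmb6 and Psmb7, whose differences were below 0 in TPM (-0.31 and -0.25). They were also below 0 without WT replicate 1 for Psmb6 and without R111A replicate 2 for Psmb7.

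In the 19S regulatory particle, the counts cover the subunits whose symbols met the rule, which leaves out Sem1 and Adrm1, described further below (Sem1 was higher in R111A). Among these members, both R111A libraries were below both WT libraries for all 6 ATPases and all 11 other subunits as deposited, against 46.3% of all genes. By limma's adjusted p, 4 ATPases were lower (66.7%, against 32.1% of all genes) and 7 of the others (63.6%), and 0 were higher in either group (against 21.2%). The median differences were -0.41 and -0.46. Relative to the median of all genes they were -0.29 and -0.34 as deposited, -0.32 and -0.37 in TPM, -0.28 and -0.33 with median-of-ratios factors, and -0.14 and -0.21 under quantile normalization. In TPM all 6 and all 11 were lower, where 51.8% of all genes were. Under median-of-ratios factors, however, 1 ATPase (16.7%) and 5 of the others (45.5%) were lower, against 25.1% of all genes, and under quantile normalization 1 (16.7%) and 4 (36.4%), against 26.8%. The counts were also 1 and 5 without WT replicate 1 (16.7% and 45.5%, against 19.9%) and 1 and 4 without WT replicate 2 (16.7% and 36.4%, against 19.7%). They were 4 and 7 without R111A replicate 1 (66.7% and 63.6%, against 37.6%) and 4 and 10 without R111A replicate 2 (66.7% and 90.9%, against 38.6%).

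Psmc1 encodes the ATPase whose tail docks into the α ring and helps to open its gate. Its level was 214 and 221 FPKM in WT and 94.99 and 113 FPKM in R111A, a difference of -1.06 (SE 0.13, limma adjusted p = 0.000301), which is 2.09-fold lower. Psmc6, another ATPase of the ring, was at 173 and 173 FPKM (WT) and 107 and 143 FPKM (R111A) (difference -0.48, SE 0.16, limma adjusted p = 0.0306). For both genes the R111A libraries were below WT. The Psmc6 value rested in part on R111A replicate 1, without which its difference was -0.27. Its call was lost under 2 scalings (limma adjusted p = 0.0896 with median-of-ratios factors and 0.208 under quantile normalization), with no filter (0.0838) and without either WT library, and the lowest adjusted p over all alternatives was 0.000754. The ATPases nearest to WT were Psmc2, at 223 and 199 FPKM (WT) and 171 and 172 FPKM (R111A), and Psmc5, at 246 and 229 FPKM (WT) and 205 and 215 FPKM (R111A). Neither was called as deposited (differences -0.30 and -0.18), both were lower in TPM (limma adjusted p = 0.00139 and 0.00496), and the difference of Psmc5 was 0.05 under quantile normalization.

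Among the non-ATPase subunits, Psmd2 is the scaffold of the 19S base that receives ubiquitin-like shuttle proteins and the deubiquitinase USP14. It had the lowest difference of all 43 members, with 212 and 202 FPKM (WT) and 92.5 and 93.7 FPKM (R111A), -1.15 (SE 0.12, limma adjusted p = 0.000119) or 2.21-fold lower. The replicates of each group were close together and the groups far apart. Psmd14, the metalloprotease of the lid that removes ubiquitin chains from substrates, was at 199 and 207 FPKM (WT) and 103 and 134 FPKM (R111A) (difference -0.78, SE 0.15, limma adjusted p = 0.0029). Again both R111A libraries were below WT. Psmd12, a structural subunit of the lid, was at 143 and 144 FPKM (WT) and 117 and 137 FPKM (R111A), and Psmd4, a ubiquitin receptor, at 224 and 207 FPKM (WT) and 200 and 183 FPKM (R111A). These 2 were the nearest to WT in the group and were not called, with differences of -0.18 and -0.17 as deposited and 0.06 and 0.01 under quantile normalization, but both were lower in TPM (limma adjusted p = 0.00705 and 0.00511). By place in the particle, 2 of the 3 non-ATPase subunits of the base were lower (66.7%, median -0.74) and 5 of the 8 lid subunits among the members (62.5%, median -0.44), against 32.1% of all genes, while the lid subunit Sem1, not a member, was higher. The assembly chaperones Psmd5, Psmd9 and Psmd10, which leave the finished particle, had 0 of 3 called by limma (0%, against 53.3% of all genes, adjusted p from 0.108 to 0.362) and a median of -0.29. In TPM, however, all 3 were lower (limma adjusted p = 0.0113, 0.00364 and 0.00457), where 51.8% of all genes were.

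Ratios of genes within a library do not change when the library is multiplied by a factor. The mean log2 FPKM of the 6 ATPases minus that of the 14 core subunits was -0.78 and -0.92 in WT and -1.06 and -1.10 in R111A. For the 11 other 19S subunits the same quantity was -1.08 and -1.16 in WT and -1.37 and -1.42 in R111A. These 19S genes were thus lower relative to the core in each R111A library than in either WT library, by -0.23 for the ATPases and -0.27 for the others. With quantile normalization, which can alter ratios, the changes were -0.21 and -0.24, and leaving out each library in turn gave -0.30 to -0.16 and -0.31 to -0.24. These ratios were added after the data were seen and carry no test.

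The 5 immunoproteasome genes did not move together. By limma's adjusted p, Psmb9 and Psme2 were lower (40%, against 32.1% of all genes), Psmb10 was higher (20%, against 21.2%), and Psmb8 and Psme1 were not called. Psmb9, which replaces the caspase-like Psmb6, was at 114 and 118 FPKM (WT) and 67.0 and 59.3 FPKM (R111A), a difference of -0.87 (SE 0.13, limma adjusted p = 0.000725) or 1.83-fold lower. Psmb10, which replaces the trypsin-like Psmb7, was at 23.95 and 23.91 FPKM (WT) and 47.4 and 35.9 FPKM (R111A), a difference of 0.76 (SE 0.16, limma adjusted p = 0.00401) or 1.70-fold higher. For both genes the groups were separate, in opposite directions, and the calls held under every alternative run, with an adjusted p of at most 0.00655 for Psmb9 and 0.0277 for Psmb10. Psmb8, which replaces the chymotrypsin-like Psmb5, was at 199 and 194 FPKM (WT) and 170 and 131 FPKM (R111A) (difference -0.39, SE 0.15, limma adjusted p = 0.0531). Both R111A libraries were below WT for Psmb8, the spread between them was wide, and the call changed with the scaling (limma adjusted p = 0.000775 in TPM and 0.357 under quantile normalization, the ends of its range over alternatives) and without R111A replicate 1 (0.00341).

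The subunits of the interferon-inducible cap were the most abundant of the 5. Psme1 was at 773 and 732 FPKM (WT) and 646 and 569 FPKM (R111A) (difference -0.31, SE 0.13, limma adjusted p = 0.068, from 0.000716 in TPM to 0.375 over alternatives, and called without R111A replicate 1). Psme2 was at 768 and 854 FPKM (WT) and 662 and 563 FPKM (R111A) (difference -0.41, SE 0.14, limma adjusted p = 0.033). Both partners were lower in both R111A libraries. The call for Psme2 was lost with median-of-ratios factors (limma adjusted p = 0.136), quantile normalization (0.109) and no filter (0.0729), and without WT replicate 1, WT replicate 2 or R111A replicate 2, with values from 0.000266 to 0.265 over all alternatives. The difference between Psme1 and Psme2 was not tested.

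The inducible share at each catalytic position put these values beside the constitutive partner in the same library. At the β1 position, Psmb9 made up 28.1% and 26.3% of the summed FPKM of Psmb9 and Psmb6 in WT and 17.5% and 15.8% in R111A. At the β2 position, Psmb10 made up 6.43% and 5.95% of its pair with Psmb7 in WT and 12.0% and 7.76% in R111A. At the β5 position, Psmb8 made up 36.1% and 33.7% of its pair with Psmb5 in WT and 35.2% and 30.6% in R111A. The share was therefore lower in both R111A libraries at β1, higher in both at β2, and overlapping at β5. On the log2 scale the ratio changed by -0.91 for Psmb9 to Psmb6, which is 1.87-fold lower, and by 0.70 for Psmb10 to Psmb7, which is 1.62-fold higher. An exact two-sided permutation test gave p = 0.33 for each, the smallest value that 2 against 2 libraries can give, and p = 0.667 for the change of -0.13 in Psmb8 to Psmb5, which turned to 0.02 without R111A replicate 2. R111A replicate 1 weighed on the β2 pair, since without it the change was 0.35. Taken as a group, the 5 genes were at -0.88 and -0.95 relative to the core in WT and at -0.71 and -1.13 in R111A (mean log2 FPKM of the 5 minus that of the 14 core subunits), so the R111A libraries lay on either side of WT.

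**Figure D3:**
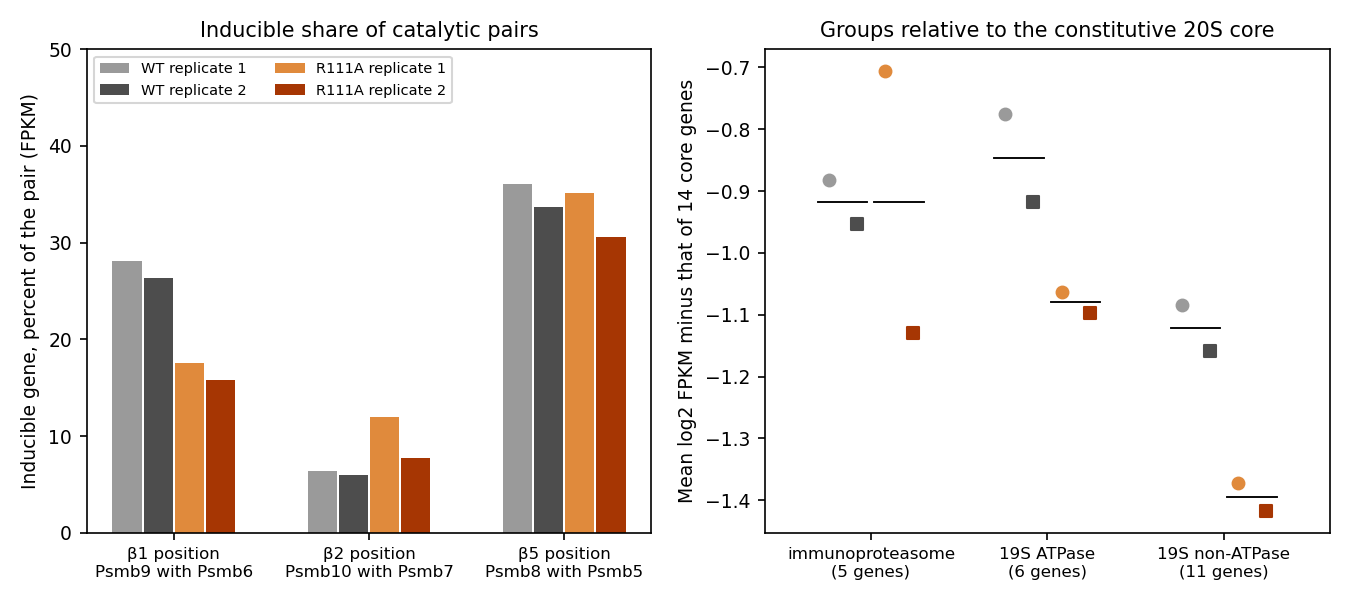
Left, FPKM of the inducible catalytic gene as a percent of its pair with the constitutive gene, in each library, and right, mean log2 FPKM of 3 groups minus that of the 14 constitutive core genes (points, libraries; bars, group means). The inducible share is lower in R111A at β1 (17.5% and 15.8%, against 28.1% and 26.3% in WT), higher at β2 and overlapping at β5, and both 19S groups are lower relative to the core in R111A.

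B cells and dendritic cells also express immunoproteasome genes, so markers of other cells were read beside them. For sorting in general, the paper prepares splenic CD4+ T cells with an untouched-cell bead kit and then uses FACS. Where mice carry GFP, it gates on GFP first, a step that WT cells would not share, since they carry no EGFP. The 4 B cell markers summed to 2.09 and 0.89 FPKM (WT) and 5.12 and 4.46 FPKM (R111A). The most abundant B cell marker in R111A was Cd79a at 2.99 and 2.37 FPKM, against 0.32 and 0.24 FPKM in WT, while the defining Ms4a1 stayed below 0.3 FPKM in every library. Only 2 B cell and 1 of 6 myeloid and dendritic cell markers reached the filter, each through its R111A values, so their tests are not used. The 6 myeloid and dendritic cell markers summed to 0.84 and 0.37 FPKM (WT) and 4.27 and 3.83 FPKM (R111A), led by Lyz2 at 3.01 and 2.37 FPKM, with Csf1r below 0.1 FPKM in every library and Itgax at 0 (WT) and 0.36 and 0.41 FPKM (R111A). Flt3 was at 0.20 and 0.29 FPKM (WT) and 0.12 and 0.20 FPKM (R111A). The 4 erythroid markers summed to 0.66 and 0.70 FPKM (WT) and 12.7 and 12.9 FPKM (R111A), nearly all of it Hba-a1, with Hba-a2 and Hbb-bs listed at 0. The 2 NK cell markers were at most 0.3 FPKM. Cd8a was at most 0.2 FPKM, and the 2 CD8+ T cell markers summed to 7.31 and 6.76 FPKM (WT) and 3.88 and 4.46 FPKM (R111A), almost all of it Cd8b1. The part of other cells in the immunoproteasome values was not tested. All 8 markers of CD4+ T cells were expressed in every library, and 5 were lower (62.5%, against 32.1% of all genes) and 1 was higher (12.5%, against 21.2%) in R111A by limma's adjusted p. The calls of Cd4, Thy1 and Cd3g held under every alternative, while those of Cd5 and Lck were lost with median-of-ratios factors (limma adjusted p = 0.180 and 0.193), under quantile normalization (0.347 and 0.398), with no filter, with either other eBayes fit and without WT replicate 1, WT replicate 2 or R111A replicate 2, and that of Cd5 also with either other pseudocount. Cd4 itself was lower, at 158 and 131 FPKM in WT against 70.7 and 51.4 FPKM, and so was Thy1, at 96.5 and 98.1 FPKM against 25.5 and 25.1 FPKM. The higher one was Cd3d, at 205 and 214 FPKM (WT) and 275 and 267 FPKM (R111A) (difference 0.37, limma adjusted p = 0.0294, but 0.81 in TPM, 0.292 without WT replicate 1 and 0.204 without WT replicate 2), and Cd3e overlapped, at 172 and 157 FPKM (WT) and 180 and 135 FPKM (R111A). Of the 2 Treg markers, Foxp3 was lower, at 11.3 and 8.78 FPKM (WT) and 2.86 and 1.86 FPKM (R111A), while Ikzf2 overlapped, at 4.50 and 4.34 FPKM (WT) and 2.35 and 4.36 FPKM (R111A), and was called lower only in TPM (limma adjusted p = 0.0206) and without R111A replicate 2 (0.00409).

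The other activators moved in both directions. Psme3 encodes the subunit of a nuclear activator ring that does not need ATP. It was at 285 and 273 FPKM (WT) and 130 and 137 FPKM (R111A), a difference of -1.06 (SE 0.12, limma adjusted p = 0.000186) or 2.08-fold lower. Psme4, a large nuclear activator linked to the degradation of acetylated histones, was at 20.6 and 19.4 FPKM (WT) and 11.3 and 11.6 FPKM (R111A) (difference -0.76, SE 0.13, limma adjusted p = 0.00176). For both, replicates were close and the groups separate. Psme2b is a near copy of Psme2 on another chromosome, so reads of the abundant Psme2 could be assigned to it and its values are uncertain. It was at 6.14 and 2.94 FPKM (WT) and 22.2 and 17.8 FPKM (R111A), a difference of 1.98 (SE 0.26, limma adjusted p = 0.000376, at most 0.0148 over alternatives), in the direction opposite to Psme2. The R111A libraries were above WT, and the WT replicates differed more for Psme2b than for any other of the 43 members. Psme3ip1, the binding partner of PSME3, was at 51.5 and 47.5 FPKM (WT) and 46.1 and 43.9 FPKM (R111A) and was not called (difference -0.13).

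Genes that build or attend the proteasome gave further values. By limma's adjusted p, 4 of 6 factors of 20S assembly or nuclear import were lower (66.7%, against 32.1% of all genes). Of the 6, 0 were higher (against 21.2%), and the median was -0.56. Pomp, the chaperone on which β rings assemble, was at 441 and 467 FPKM (WT) and 281 and 344 FPKM (R111A) (difference -0.54, SE 0.14, limma adjusted p = 0.0105). Psmg1 and Psmg2, which pair to chaperone the α ring, had differences of -0.77 and -0.76 (SE 0.13 and 0.12, limma adjusted p = 0.00152 and 0.00117), with Psmg1 at 113 and 118 FPKM (WT) and 62.2 and 72.2 FPKM (R111A) and Psmg2 at 96.2 and 97.9 FPKM (WT) and 54.8 and 58.8 FPKM (R111A). Of the second such pair, Psmg3, at 75.4 and 81.3 FPKM (WT) and 56.8 and 47.5 FPKM (R111A), was lower (difference -0.58, limma adjusted p = 0.00794), and Psmg4, at 185 and 216 FPKM (WT) and 162 and 176 FPKM (R111A), was not called (-0.24). In TPM both were lower (limma adjusted p = 0.000126 and 0.00272) and under quantile normalization neither was (0.0612 and 0.953), and the difference between these 2 genes was not tested. Both R111A libraries were below both WT libraries for these 5 genes (83.3% of the 6 factors, against 46.3% of all genes). Akirin2, which carries proteasomes into the nucleus, was at 25.7 and 25.0 FPKM (WT) and 34.3 and 30.4 FPKM (R111A), higher in both libraries but not called (difference 0.34, limma adjusted p = 0.0621). It was called with median-of-ratios factors (limma adjusted p = 0.0201) and quantile normalization (0.0243) but had a difference of 0.01 in TPM (0.942). The call for Pomp was lost without WT replicate 2, and that for Psmg3 without either WT library and under quantile normalization.

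Of 15 proteins that associate with the proteasome, 6 were lower (40%, against 32.1% of all genes) and 1 was higher (6.67%, against 21.2%), and the median was -0.29. In TPM all but Sem1, Zfand5 and Zfand2a were lower (limma adjusted p = 0.595, 0.184 and 0.972 for these), where 51.8% of all genes were. The call of Txnl1 was lost with median-of-ratios factors (limma adjusted p = 0.114) and quantile normalization (0.330). The deubiquitinases of the 19S particle were among the lower ones. Uchl5 was at 52.8 and 50.8 FPKM (WT) and 22.0 and 30.5 FPKM (R111A) (difference -0.97, SE 0.17, limma adjusted p = 0.00156), and Usp14 was at 33.0 and 32.9 FPKM (WT) and 16.6 and 20.3 FPKM (R111A) (difference -0.81, SE 0.15, limma adjusted p = 0.00184). Both genes were separate between the groups. Adrm1, the ubiquitin receptor that anchors UCHL5, was at 163 and 163 FPKM (WT) and 148 and 110 FPKM (R111A) and was not called (difference -0.35, limma adjusted p = 0.0915), although it was in TPM (0.00152) and without R111A replicate 1 (difference -0.56, 0.00349), while without R111A replicate 2 its difference was -0.14. Also not called, except in TPM (limma adjusted p = 0.0425) and without R111A replicate 1 (0.0326), was the inhibitor Psmf1, at 16.9 and 15.2 FPKM (WT) and 17.4 and 12.3 FPKM (R111A). The 1 higher gene was Sem1, the small lid subunit whose symbol does not match the rule, at 494 and 560 FPKM (WT) and 705 and 697 FPKM (R111A). Its difference of 0.41 (SE 0.13, limma adjusted p = 0.0226) was 0.08 in TPM, where the call was lost, as it was without WT replicate 1 (0.278) and without WT replicate 2 (0.0721).

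Among 9 regulators of proteasome genes, 8 passed the filter, 2 were lower (25%, against 32.1% of all genes) and 1 was higher (12.5%, against 21.2%). Nfe2l1, the transcription factor that raises proteasome genes when degradation is blocked, was at 32.4 and 33.5 FPKM (WT) and 28.6 and 24.5 FPKM (R111A) (difference -0.30, SE 0.14, limma adjusted p = 0.0928, but 0.00235 in TPM). Ddi2, the protease that activates it, was at 33.1 and 30.2 FPKM (WT) and 17.7 and 15.3 FPKM (R111A) (difference -0.90, SE 0.14, limma adjusted p = 0.000968). Both were lower in both R111A libraries, but only Ddi2 of these 2 was called as deposited. Nfe2l2, a transcription factor of the oxidative stress response, was at 16.6 and 16.3 FPKM (WT) and 23.7 and 20.3 FPKM (R111A) (difference 0.40, SE 0.14, limma adjusted p = 0.0415), a call that was lost in TPM, with no filter and without either WT library. Keap1, which targets the Nfe2l2 product for degradation, was lower (difference -0.61, SE 0.15, limma adjusted p = 0.00875), a call lost without WT replicate 1 (0.0599) and without WT replicate 2 (0.117). The interferon-pathway regulators Irf1 and Nlrc5 were not called, with differences of -0.27 and -0.07 and adjusted p by limma of 0.275 and 0.713. Both were called lower in TPM (limma adjusted p = 0.00952 and 0.0408), and Irf1 also without R111A replicate 1 (0.00478). Neither kept its sign, with Irf1 at 0.04 without R111A replicate 2 and Nlrc5 at 0.06 with median-of-ratios factors. Nfe2l3 was at or near 0.

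Downstream of the proteasome, changes went both ways. Of 8 genes that load peptides on MHC class I, 4 were lower (50%, against 32.1% of all genes) and 1 was higher (12.5%, against 21.2%). The lower ones were the peptide-trimming Erap1 and the chaperones Calr, Pdia3 and Canx, with differences of -0.69, -0.54, -0.42 and -0.76, all by limma's adjusted p. Pdia3 was not called with median-of-ratios factors (limma adjusted p = 0.083), under quantile normalization (0.226) or without either WT library (0.171 and 0.191), Erap1 not with no filter (0.051) and Calr not without WT replicate 1 (0.0615). The higher one was B2m, the light chain of class I, at 1559 and 1518 FPKM (WT) and 3652 and 4317 FPKM (R111A) (difference 1.37, SE 0.13, limma adjusted p = 7.51e-05). B2m kept its direction in TPM (1.03), under median-of-ratios factors (1.5) and under quantile normalization (1.15).

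**Figure D4:**
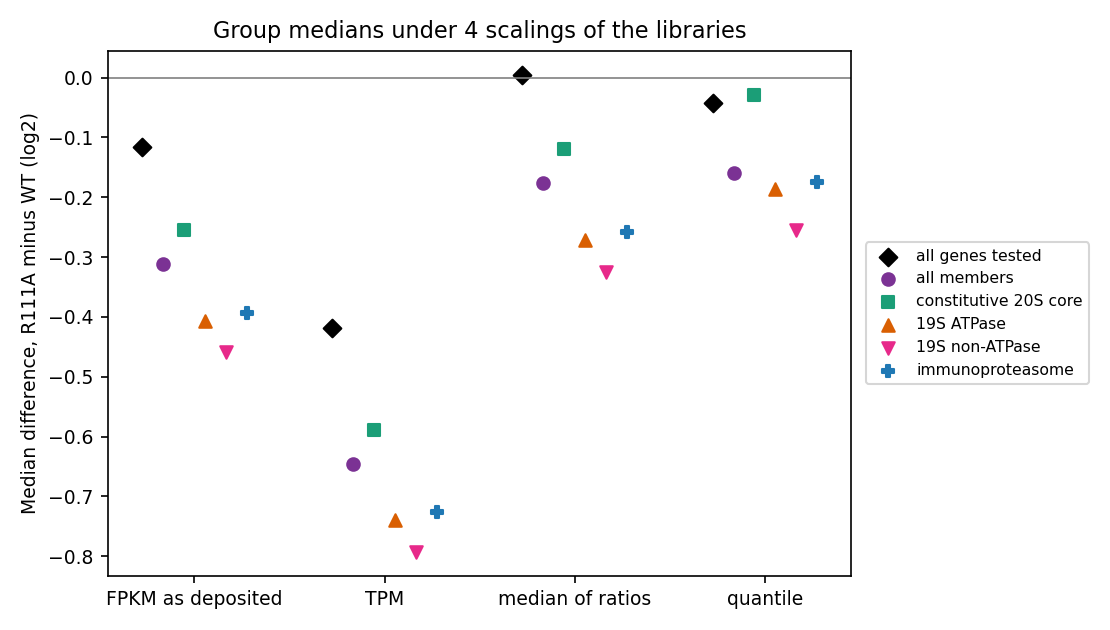
Median difference between R111A and WT (log2) of all 9831 genes tested, the 43 proteasome genes and 4 of their groups, with the libraries as deposited (FPKM), rescaled to TPM, divided by median-of-ratios factors and quantile normalized. The 19S and immunoproteasome medians lie below the median of all genes under each of the 4 scalings, while the constitutive core median lies below it under 3 and above it, by 0.01, under quantile normalization.

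Position and promoter sequence were read from RefSeq annotation of GRCm38.p6, the assembly that mm10 denotes. Psmb9 (chromosome 17, 34182030 to 34187330) and Psmb8 (chromosome 17, 34198195 to 34201454) lie in the MHC with the peptide transporter genes Tap1 and Tap2 between and beside them. Psmb9 and Tap1 are 225 bases apart on opposite strands. In GENCODE annotation of the same assembly a longer Psmb9 model shares 212 bases with Tap1, and whether reads were assigned by strand is not given in the sources used here, so reads from the shared stretch possibly cannot be told apart. Tap1 was at 99.96 and 95.02 FPKM (WT) and 116 and 79.2 FPKM (R111A), with overlapping groups and a difference of -0.03, against -0.87 for Psmb9. That of Tap1 ranged from -0.30 without R111A replicate 1 (limma adjusted p = 0.0307) to 0.25 without R111A replicate 2, and was 0.11 with median-of-ratios factors and 0.22 under quantile normalization. Tap2 was at 66.4 and 64.2 FPKM (WT) and 104 and 70.9 FPKM (R111A) (difference 0.39, limma adjusted p = 0.0996). It was called with median-of-ratios factors (limma adjusted p = 0.0436), quantile normalization (0.0233) and without R111A replicate 2 (difference 0.67, 0.00223), but was at 0.12 without R111A replicate 1 and 0.06 in TPM (0.763). Psme1 and Psme2 are also neighbours, on chromosome 14 at 55578494 to 55581527 and 55587440 to 55591101. Psmb10 lies on chromosome 8 at 105935728 to 105938392, and Psme2b on chromosome 11 at 48945345 to 48946410.

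Promoter windows from 250 bases before to 50 after the start were matched for 38 of the 45 members (42 windows), and 4 motifs were searched on both strands. Psmb7 was among the genes with no window. The core of the antioxidant response element, TGACNNNGC, which NFE2L1 and NFE2L2 bind, was in 6 windows (14.3%, against 12.4% of all 32851 windows). The CCAAT box was in 15 (35.7%, against 37.4%), and the gamma-activated site TTCNNNGAA in 2 (4.76%, against 8.30%). The core of the interferon-stimulated response element, written as GAAA, any 2 bases and GAAA, was in 4 (9.52%, against 3.44%), which were those of Psmb3, Psmd4, Psmd9 and Psme1. The members' shares were close to those of all promoters for the first 2 motifs, and the other 2 rest on 2 and 4 windows. The matches of these 3 elements in catalytic and cap genes are shown with the motif in capitals, each on the strand of its gene, because the levels of these genes are given above. The stretch of Psmb5 lies at chr14:54618024-54618052 on the minus strand, Psmb6 at chr11:70525338-70525366, Psmb8 at chr17:34198088-34198116 and Psme1 at chr14:55578493-55578521, these 3 on the plus strand. The first 2 hold the antioxidant element, the next the gamma-activated site and the last the interferon-stimulated element read from the other strand.
Psmb5: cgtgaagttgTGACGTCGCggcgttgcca
Psmb6: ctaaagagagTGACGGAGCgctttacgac
Psmb8: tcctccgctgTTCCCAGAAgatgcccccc
Psme1: cgagctgtgcTTTCGCTTTCccttcccgc
These 4 genes were not called as deposited. In TPM, where 51.8% of all genes were lower, so were Psmb5, Psmb8 and Psme1 (limma adjusted p = 0.00116, 0.000775 and 0.000716). Psmb6 was not called there (0.0509). Of the 11 tested genes with at least 1 of these 3 elements, Psmd2, Psmc6 and Psme4 were lower by limma's adjusted p (27.3%, against 32.1% of all genes) and 0 were higher (against 21.2%). The windows of Psmb10 and Psme2 held none of the 4 motifs, and that of Psmb9 held a CCAAT box alone, at chr17:34187324-34187348 on the minus strand (gcagccgctgATTGGaaagccgagc, the box on the other strand). A match is a description of the sequence, not evidence of binding, and the absence of one says only that these letters are not in the window.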

How the data were processed

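PolyA RNA of 4 libraries of stimulated CD4+ T cells was sequenced. The authors aligned reads to mm10 with Bowtie2 (2.4.4), estimated expression with RSEM (1.2.28) and deposited FPKM values for 16142 genes in 1 table. The annotation is not given in the sources used here, depth is unknown, and the authors' test on counts was not repeated. Groups came from the sample labels. Values were analysed as log2(FPKM + 1) with limma (3.58.1 in R 4.3.3; eBayes with trend, Benjamini-Hochberg adjustment over 9831 genes averaging 1 FPKM or more), a procedure tested on simulated data. Ratios used FPKM without a pseudocount and exact permutation tests.

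Alternatives were pseudocounts of 0.1 and 5 FPKM, no filter or one at 5 FPKM, 3 other scalings, eBayes without trend or robust, the replicate number as a term, and each library left out. Named in full were the immunoproteasome genes, their constitutive partners, other activators, the 2 highest and 2 lowest genes of each 20S and 19S group, genes past 2-fold, genes not tested, and set genes of the assembly, associated and regulator lists. Members and lists were chosen with earlier results of these data known. Other genes, among them Sem1, Ddi2, Keap1, the interferon-pathway regulators, the class I genes and the markers, were named after their values were seen. Figures were drawn in python 3.11.15 with matplotlib 3.10.9.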

Additional observations from a re-analysis of the deposited data

How the results depend on the processing

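At 2-fold and by limma's adjusted p, 3 proteasome genes were lower as deposited, 9 in TPM, 1 with median-of-ratios factors and 0 under quantile normalization. The share of all genes at 2-fold is given as deposited only (8.34%). The counts of 9, 1 and 0 therefore cannot be set against all genes and are not read as a result. By adjusted p alone, the count of lower proteasome genes was 18 as deposited, 37 in TPM, 11 with median-of-ratios factors and 10 under quantile normalization. Leaving out each library gave 10 to 24, with 11 without WT replicate 1 and 10 without WT replicate 2, where the lone sample is assumed to vary like the other group. Without Psme2b and Psme3ip1, a choice made after seeing the data, 1 gene was higher instead of 2. The median of all members was -0.65 in TPM, -0.18 with median-of-ratios factors and -0.16 under quantile normalization, and -0.34 to -0.27 with a library left out. In the same order the medians were -0.59, -0.12 and -0.0284 for the core (-0.28 to -0.18 with a library left out), -0.74, -0.27 and -0.19 for the ATPases (-0.43 to -0.28 with a library left out) and -0.79, -0.32 and -0.26 for the other 19S subunits (-0.50 to -0.40). The immunoproteasome median was -0.73 in TPM and -0.17 under quantile normalization (-0.52 to -0.22 with a library left out).

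Signs turned for genes near 0 that were not called. Psmb6 was -0.31, Psmb7 -0.25, Psma3 -0.20 and Psmb1 -0.24 in TPM. Under quantile normalization Psma7 was 0.0621, Psmc5 0.0474, Psmd12 0.0580 and Psmd4 0.00949, and with median-of-ratios factors Psma7 was 0.0407 and Psmf1 0.0014. With a library left out, Psmb6 ranged from -0.0606 to 0.11 (below 0 without WT replicate 1), Psmb7 from -0.0597 to 0.23 (without R111A replicate 2), Psma7 from -0.23 to 0.0389 (above 0 without WT replicate 2) and Psmf1 from -0.36 to 0.11 (without R111A replicate 2). The cause was not tested. Over the named genes and 19S ratios and their alternatives, 494 values kept direction and side of the threshold, 26 lost the call, 26 gained it and 14 turned. Calls were gained in TPM for 13 genes, Psma7, Psmb3, Psmb5, Psmb8, Psmc2, Psmc5, Psmd4, Psmd12, Psme1, Psmf1, Psmg4, Adrm1 and Nfe2l1, all lower there. They were gained with median-of-ratios factors and under quantile normalization for Akirin2, without R111A replicate 1 for Psmb5, Psmb8, Psme1, Psmf1, Adrm1 and Nfe2l1, and without R111A replicate 2 for Psmb3, Psmd12 and Akirin2. Without R111A replicate 1 the difference was -0.18 for Psmb3, -0.07 for Psmd12, 0.23 for Psma3 and 0.18 for Psmb1, and without R111A replicate 2 it was -0.21 for Psmb8, -0.29 for Psmd12, 0.03 for Psma3 and 0.01 for Psmb1. The replicate block gave 19 lower (44.2%, against 34.2% of all genes) and 2 higher members and added the calls of Psmb8, Adrm1 and Tap2; the libraries share only replicate numbers, and deviations of same-numbered libraries correlated at 0.111 over 9831 genes.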

Other observations

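The COP9 signalosome, which removes NEDD8 from cullin ubiquitin ligases, has a structure close to that of the proteasome lid, and its genes were read as a list beside the lid. Of its 10 genes, 4 were lower in R111A (40%) and 0 were higher by limma's adjusted p, against 32.1% and 21.2% of all genes tested. In TPM all but Cops7b (limma adjusted p = 0.0538) were lower, where 51.8% of all genes were. Under quantile normalization the call of Cops8 was lost (limma adjusted p = 0.0813). All 10 differences were below 0 as deposited, with a median of -0.36. The sign turned for Cops7b with median-of-ratios factors (0.08) and quantile normalization (0.07), and for Cops4 under quantile normalization (0.01). Gps1 was at 113 and 113 FPKM (WT) and 71.7 and 66.1 FPKM (R111A) (difference -0.71, limma adjusted p = 0.00172). Cops9, the smallest subunit, was at 245 and 302 FPKM (WT) and 183 and 147 FPKM (R111A) (difference -0.73, SE 0.16, limma adjusted p = 0.00501), a call lost without WT replicate 2 (0.0595). Both genes were lower in both R111A libraries, and both were named after their values were seen.

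Replicates of the 43 proteasome genes tested were closer in WT than in R111A. The median absolute difference between replicates on the log2(FPKM + 1) scale was 0.078 in WT and 0.200 in R111A.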
